A study of Mus musculus with 9 samples.

Results

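The potassium channel genes of the mouse are those whose symbols start with Kcn, and they were followed here in the right ventricle after pulmonary banding. Each gene was taken from the probe sets that name it alone, and where several did, the one with the highest mean over all 9 arrays stood for it. This gave 84 of the 18193 genes measured. Of the 84, 81 encode channel subunits or their direct partners and 3 are noncoding transcripts, Kcnq1ot1, Kcnmb4os1 and Kcnmb4os2. All mice were male C57BL6J, called wild type, aged 6 to 8 weeks. Right ventricular myocardium was measured on 5 arrays of mice with pulmonary banding, in which a band around the pulmonary artery raises the pressure the ventricle works against, and on 4 arrays of sham-operated mice. Whether each numbered replicate is its own animal is not stated, and p-values then measure only the spread between these samples, which may be technical. The sources used here do not give the time from surgery to collection. The arrays were Affymetrix one-colour arrays, hybridised with total RNA.

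Potassium channels return the heart cell to its resting voltage after each beat. In cardiomyocytes the transient outward current (Ito) and the delayed rectifiers (IK) repolarise the cell, and the inward rectifier (IK1) holds the resting potential. The ATP-sensitive current (KATP) opens when energy is short, the muscarinic current (KACh) opens on vagal input, and the tandem-pore channels carry background current. A channel is built of pore subunits, often with auxiliary subunits that set its traffic and gating. In hypertrophied and failing hearts, loss of transcripts of the transient outward current is a well-known form of electrical remodelling.

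Values are log2 expression as the authors deposited them. The floor shared by all arrays was 2.198, and a group mean under 4.2 is called dim. Array medians lay between 3.23 and 3.31, and pairs of arrays correlated across genes at 0.983 to 0.997 within groups and at 0.945 to 0.977 between them. Libraries stood apart in transcripts of other tissues. The mean of 8 liver markers was 9.61 to 13.63 on sham arrays and 2.78 to 5.26 on banding arrays, with sham replicate 4 and banding replicate 5 highest in their groups. The mean of 7 skeletal muscle markers was 5.63 on sham replicate 4 and at most 3.39 on the other arrays. The number of arrays limits the precision.

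Banding was compared with sham to ask which channel transcripts differ in the overloaded ventricle. Most channel transcripts above the dim level were lower in banding. The falls took in the transient outward current, the ERG and slow delayed rectifiers, the muscarinic current, the background channel Kcnk3 and the small-conductance calcium-activated channels. A smaller set rose, led by Kcnj15 (at least 23.9-fold) and Kcne4 (8.55-fold). The call was made by limma with Benjamini-Hochberg adjustment over all 18193 genes at an adjusted p of 0.05. Of the 84 members, 16 were lower (19.0%, against 20.0% of all genes) and 7 were higher (8.33%, against 18.4%). In either direction 38.4% of all genes passed.

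Many members gave no usable signal, and 56 of the 84 were dim in both groups. Both group means were at or above 4.2 for 22 members and for 10372 of all genes. Among these 22 members 13 were lower (59.1%, against 32.3% of such genes), 3 were higher (13.6%, against 29.0%), and the test called no change in 6. Their median difference, banding minus sham, was -0.76 log2 units, beside -0.02 over the 10372 genes. The groups were separate, with no overlap between banding and sham values, for 16 of the 22 (72.7%), against 57.7% of such genes, and for 23 of all 84 (27.4%, against 36.7%). Without sham replicate 4 and banding replicate 5, chosen after the data were seen, 15 members were lower and 7 higher. The remaining arrays still differed in liver markers, with list means of 9.61 to 11.11 in sham and 2.78 to 2.88 in banding. The part of other tissues in these counts was not tested.

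**Figure D1:**
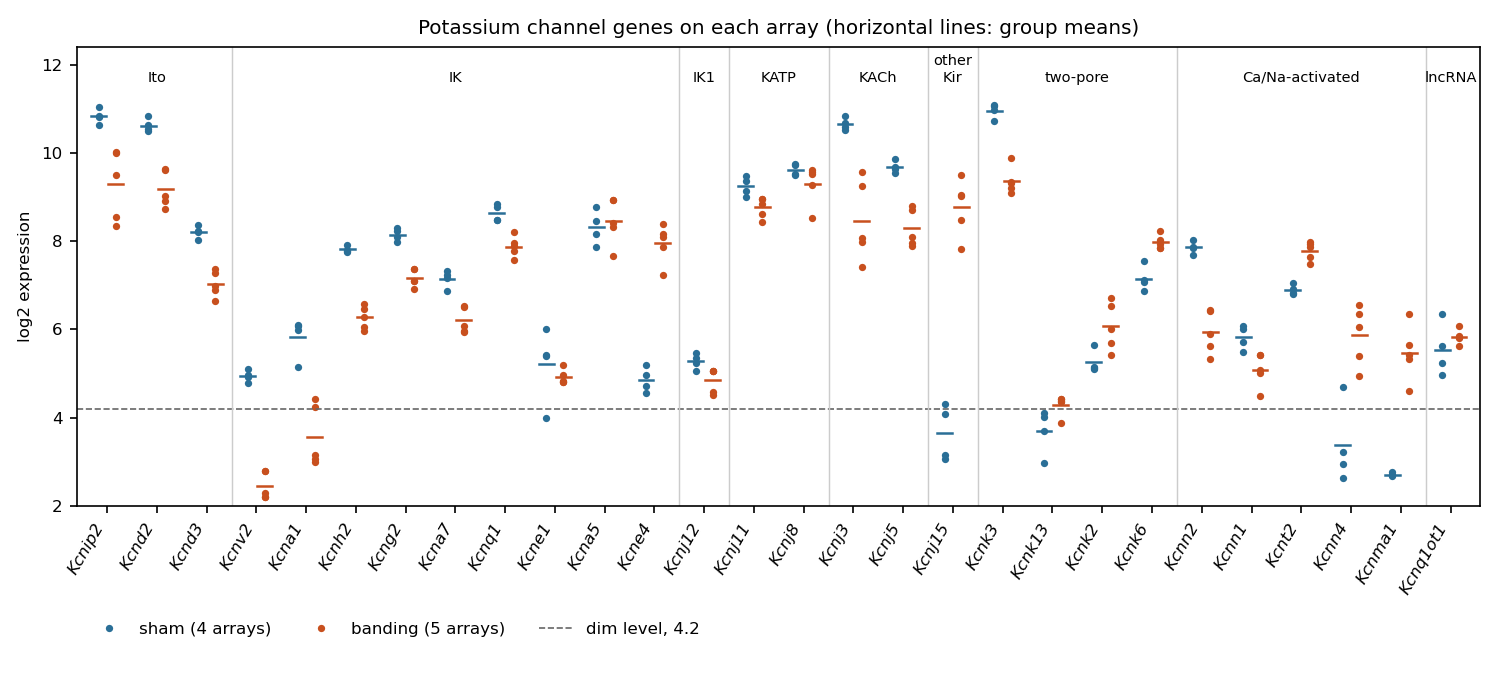
Log2 expression of the 28 potassium channel genes with at least 1 group mean at or above 4.2, 1 point per array, grouped by current, with horizontal lines at the group means (blue, 4 sham arrays; orange, 5 banding arrays). The dashed line is the dim level of 4.2. Levels of different genes come from different probe sets and are not comparable. The groups do not overlap for Kcnd2 and Kcnh2, and they overlap for Kcna5 and Kcnj8.

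The transient outward current is carried in the mouse ventricle by pore subunits of the Kv4 family with the calcium-binding partner KChIP2. All 3 measured genes of this current above the dim level fell, where 32.3% of all genes with both group means at or above 4.2 were lower. Kcnd2, a Kv4 pore subunit, gave sham values, in the order of the replicate numbers, of 10.63, 10.85, 10.49 and 10.53. The banding values in the same order were 9.61, 8.90, 9.63, 8.74 and 9.03. All banding arrays lay below all sham arrays. The level was 2.71-fold lower (log2 -1.44 ± 0.21, SE, adjusted p = 0.00123, limma). Kcnd3, the other Kv4 pore subunit of the ventricle, stood at 8.37, 8.22, 8.21 and 8.04 in sham and at 7.27, 6.65, 7.36, 6.90 and 6.99 in banding. It was 2.26-fold lower (-1.18 ± 0.15, adjusted p = 0.00068, limma), and by the mean of its probe sets, most of them dim, the difference was -0.51. Kcnip2, which encodes KChIP2, stood at 10.81, 10.84, 11.04 and 10.62 in sham. Its banding values were spread more widely, at 10.001, 9.51, 10.01, 8.55 and 8.35, with replicates 1 and 3 high and 4 and 5 low. It was 2.92-fold lower (-1.54 ± 0.40, adjusted p = 0.0165, limma), and the groups did not overlap. By the mean of its probe sets the difference of Kcnip2 was -0.98 (adjusted p = 0.0231, limma). Kcna4, which carries the slow transient current, was dim in both groups, as were Kcnd1, Kcnip1, Kcnip3 and Kcnip4.

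The delayed rectifiers are a larger group, with voltage-gated pore subunits of several families, electrically silent subunits that join them, beta subunits and the single-span KCNE subunits. Of 35 such members, 26 were dim in both groups. Among the other 9, 6 fell, 1 rose and 2 missed the threshold, where 32.2% of all genes with at least 1 group mean at or above 4.2 were lower and 29.8% higher. Kcnh2, the ERG pore subunit of the rapid delayed rectifier, stood at 7.92, 7.81, 7.77 and 7.76 in sham and at 6.47, 6.28, 6.58, 6.06 and 5.97 in banding. The gap between the groups was wider than the range within either one. It was 2.91-fold lower (-1.54 ± 0.13, adjusted p = 0.000122, limma). Kcnq1, the pore subunit of the slow delayed rectifier, stood at 8.49, 8.77, 8.84 and 8.49 in sham and at 8.21, 7.57, 7.77, 7.95 and 7.89 in banding. It was 1.71-fold lower (-0.77 ± 0.14, adjusted p = 0.00346, limma). Its auxiliary subunit Kcne1 did not pass (-0.29 ± 0.38, adjusted p = 0.624, limma). Kcne1 ranged from 3.997 on sham replicate 2 to 6.02 on sham replicate 3, so that the banding values of 4.80 to 5.20 lay inside the sham range, and the 95% interval of the difference ran from -1.17 to 0.59. Without sham replicate 2 it passed (-0.70, adjusted p = 0.0202, limma), and without sham replicate 3 the difference was -0.02.

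Kcna5, a Kv1 pore subunit of the rapidly activating sustained current, did not pass. Its values were 8.45, 7.86, 8.78 and 8.16 in sham and 8.93, 8.33, 8.94, 8.41 and 7.66 in banding. The groups overlapped throughout, and the difference of 0.14 ± 0.31 (adjusted p = 0.841, limma) had a 95% interval of -0.58 to 0.87. Other Kv1 genes fell. Kcna1, best known from neurons, stood at 6.10, 6.08, 5.16 and 6.00 in sham and at 4.42, 3.06, 4.25, 3.14 and 2.997 in banding. It was at least 3.10-fold lower (-2.26 ± 0.39, adjusted p = 0.00267, limma), where "at least" marks a fold against the dim level because the banding mean was dim. By the mean of its probe sets the difference of Kcna1 was -1.03. Kcna7, a Kv1 subunit of striated muscle, stood at 7.23, 7.17, 7.33 and 6.87 in sham and at 6.53, 6.08, 6.51, 5.93 and 5.96 in banding. It was 1.93-fold lower (-0.95 ± 0.17, adjusted p = 0.00291, limma). Sham replicate 4 held the lowest sham value of Kcna7, as it did in 9 of the 13 fallen members with both group means at or above 4.2. Without that array the difference of Kcna7 was -1.04. The part of skeletal muscle tissue in the values of Kcna7 was not tested.

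The silent subunits do not form channels alone but alter those formed by other Kv subunits. Kcng2 stood at 8.09, 8.23, 8.29 and 7.98 in sham and at 7.37, 7.09, 6.92, 7.37 and 7.09 in banding. It was 1.97-fold lower (-0.98 ± 0.11, adjusted p = 0.000391, limma) with no overlap. Kcnv2 stood at 5.11, 4.98, 4.92 and 4.78 in sham and was near or at the floor in banding, at 2.78, 2.198, 2.30, 2.78 and 2.198. It was at least 1.68-fold lower, a bound that is small because the sham values were themselves close to the dim level (measured difference -2.49 ± 0.16, adjusted p = 4.43e-05, limma).

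In the other direction, Kcne4 rose. Kcne4 encodes a KCNE subunit known to inhibit channels of the Kv1 and Kv7 families. Its values were 4.71, 4.97, 4.55 and 5.19 in sham and 7.23, 8.17, 7.87, 8.40 and 8.09 in banding. Every banding array was above every sham array, and banding replicate 1 was the lowest of the banding group. The rise was 8.55-fold (log2 3.10 ± 0.25, adjusted p = 9.67e-05, limma). Kcne1, Kcnq1 and Kcne4 encode subunits that can meet in a channel, and their differences were -0.29, -0.77 and 3.10.

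The inward rectifier IK1 is built from Kir2 pore subunits. Kcnj2, the main Kir2 gene of the ventricle, could not be assessed, because its probe set was dim on every array, with means of 2.58 in sham and 2.32 in banding. Kcnj12, another Kir2 gene, stood at 5.48, 5.36, 5.05 and 5.24 in sham and at 5.05, 4.53, 5.05, 4.58 and 5.05 in banding. Its difference of -0.43 ± 0.16 did not pass (adjusted p = 0.0665, limma), with a 95% interval of -0.79 to -0.06 before adjustment for the number of genes. When only genes above the dim level were tested it passed (adjusted p = 0.0282, limma). Kcnj4 and Kcnj14 were dim in both groups.

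The ATP-sensitive channel pairs a Kir6 pore with a sulfonylurea receptor of the Abcc family. Kcnj11, the Kir6 pore of cardiomyocytes, stood at 9.15, 9.47, 9.36 and 8.99 in sham and at 8.96, 8.62, 8.96, 8.44 and 8.84 in banding. It was 1.39-fold lower (-0.48 ± 0.14, adjusted p = 0.034, limma), with little room between the groups. The call was lost without any 1 of sham replicates 1, 2 and 3 or banding replicates 2, 4 and 5, with an adjusted p of 0.0562 to 0.092 (limma). Kcnj8, the Kir6 pore of vascular smooth muscle and pericytes, did not pass (-0.32 ± 0.23, adjusted p = 0.354, limma). It stood at 9.49, 9.75, 9.73 and 9.52 in sham and at 9.62, 9.56, 9.52, 9.27 and 8.53 in banding, where replicate 5 alone was far below sham, and its 95% interval was -0.86 to 0.21. Without banding replicate 5 the difference was -0.13 (adjusted p = 0.411, limma).

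The sulfonylurea receptors lie beside the pore genes in the annotation, Abcc8 beside Kcnj11 and Abcc9 beside Kcnj8, and both were lower. Abcc9 stood at 13.35, 13.40, 13.24 and 13.34 in sham and at 12.52, 12.33, 12.61, 11.81 and 11.53 in banding (-1.17 ± 0.23, adjusted p = 0.00497, limma). Abcc8 stood at 8.96, 8.96, 8.93 and 8.48 in sham and at 8.27, 8.05, 7.93, 7.94 and 7.75 in banding (-0.85 ± 0.14, adjusted p = 0.0019, limma). All 4 genes of the ATP-sensitive channel, 2 of them members, had negative differences, and 3 of them passed. Of all genes with both group means at or above 4.2, 32.3% were lower.

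The muscarinic channel is a tetramer of Kir3 subunits opened by G proteins, known mainly from atrial and nodal cells. Kcnj3 stood at 10.60, 10.68, 10.52 and 10.85 in sham, and its banding values were widely spread, at 9.57, 8.06, 9.26, 7.41 and 7.99. It was 4.60-fold lower (-2.20 ± 0.45, adjusted p = 0.00606, limma), with replicates 1 and 3 nearest to sham. Its partner Kcnj5 stood at 9.67, 9.86, 9.64 and 9.55 in sham and at 8.70, 7.97, 8.79, 7.89 and 8.08 in banding. It was 2.63-fold lower (-1.39 ± 0.22, adjusted p = 0.00154, limma), and banding replicates 1 and 3 were again the pair nearest to sham. The atrial marker Myl7 ran from 9.03 to 11.63 in sham and from 9.06 to 13.44 in banding. It was highest on banding replicate 1 and lowest in its group on banding replicate 3, the pair of banding arrays with the most Kcnj3. Among 7 atrial markers, 1 (Nppa) rose, 2 fell (Tbx5 and Stard10) and 4 missed the threshold, and the list means overlapped, at 7.81 to 9.31 in sham and 8.08 to 10.22 in banding. Among them Myl4 ran from 9.38 to 13.63 and Sln from 7.57 to 11.97 over all arrays, both highest on banding replicate 1. Bmp10 lay at the floor on every array except banding replicate 1, where it was dim at 2.98. The part of atrial tissue in these values was not tested. Kcnj6 and Kcnj9 were dim in both groups.

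The tandem-pore channels carry background current. Kcnk3, the acid-sensitive TASK channel of heart and pulmonary artery, stood at 11.06, 10.97, 11.08 and 10.73 in sham and at 9.89, 9.32, 9.34, 9.09 and 9.20 in banding. It was 3.01-fold lower (-1.59 ± 0.17, adjusted p = 0.000257, limma) with no overlap. Kcnk6, of the TWIK type, went the other way, from 7.54, 6.87, 7.12 and 7.07 in sham to 7.84, 7.85, 7.95, 8.04 and 8.23 in banding. The rise was 1.78-fold (0.83 ± 0.14, adjusted p = 0.0027, limma). Kcnk2, the stretch-sensitive TREK channel, did not pass (0.81 ± 0.29, adjusted p = 0.0608, limma). It stood at 5.16, 5.64, 5.12 and 5.11 in sham and at 5.43, 5.69, 6.01, 6.52 and 6.71 in banding, and only sham replicate 2 and banding replicate 1 were out of order. Without banding replicate 1 it passed (0.97, adjusted p = 0.0251, limma), as it did when only genes above the dim level were tested (adjusted p = 0.0214, limma). Kcnk13 was the member whose higher group mean lay closest above the dim level, with means of 3.70 in sham and 4.29 in banding. It stood at 4.12, 4.01, 2.97 and 3.71 in sham and at 3.89, 4.43, 4.42, 4.35 and 4.38 in banding, and did not pass (0.59 ± 0.25, adjusted p = 0.105, limma). When only genes above the dim level were tested its adjusted p was 0.0433. By the mean of its probe sets the difference of Kcnk13 was 0.31, and without sham replicate 3 it was 0.35.

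Channels opened by calcium or sodium in the cell split by type. The small-conductance channels of excitable cells were lower. Kcnn2 stood at 8.02, 7.87, 7.69 and 7.84 in sham and at 6.43, 5.90, 6.42, 5.33 and 5.61 in banding, a 3.78-fold difference (-1.92 ± 0.25, adjusted p = 0.000636, limma). Kcnn1 stood at 5.50, 6.00, 6.08 and 5.72 in sham and at 5.41, 5.01, 5.41, 5.08 and 4.49 in banding. It was 1.68-fold lower (-0.75 ± 0.22, adjusted p = 0.0292, limma), and the call was lost without sham replicate 2, 3 or 4 or banding replicate 2 or 4 (adjusted p = 0.0539 to 0.0801, limma).

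The large- and intermediate-conductance channels and a sodium-activated channel were higher. Kcnma1, the large-conductance pore of smooth muscle, was at 2.70, 2.70, 2.68 and 2.76 in sham and at 4.61, 6.35, 5.34, 5.42 and 5.64 in banding. It rose at least 2.42-fold (measured difference 2.76 ± 0.31, adjusted p = 0.000331, limma). Only 1 of its 5 probe sets was above the dim level in any group, and by the mean of all 5 the difference was 0.56. Kcnn4, the intermediate-conductance pore of blood cells, fibroblasts and proliferating smooth muscle, was at 2.95, 2.63, 4.69 and 3.23 in sham and at 4.95, 6.36, 6.05, 5.40 and 6.56 in banding. It rose at least 3.17-fold (2.49 ± 0.51, adjusted p = 0.0059, limma), although sham replicate 3 came close to the lowest banding array, and by the mean of its probe sets the difference was 1.49. Kcnt2, a sodium-activated pore, went from 7.05, 6.91, 6.81 and 6.83 in sham to 7.98, 7.93, 7.86, 7.48 and 7.65 in banding, a 1.84-fold rise (0.88 ± 0.11, adjusted p = 0.000662, limma). The beta subunits Kcnmb1, Kcnmb2 and Kcnmb4 were dim in both groups.

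The largest rise of any member was in Kcnj15, an inward rectifier known from kidney and other epithelia. It was dim on sham replicates 1 to 3, at 4.09, 3.15 and 3.07, and reached 4.31 on sham replicate 4. In banding it stood at 7.82, 9.51, 8.48, 9.04 and 9.03, far above every sham array. The rise was at least 23.9-fold (measured difference 5.12 ± 0.42, adjusted p = 0.000102, limma). A second probe set rose by 4.16 ± 0.39 log2 units, from 2.87 to 7.03, and the mean of all 3 probe sets, 1 of them at the floor throughout, gave 3.09. Kcnj6, the neighbouring gene, was dim in both groups, as were the other Kir genes of transporting epithelia, Kcnj1, Kcnj10, Kcnj13 and Kcnj16.

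**Figure D2:**
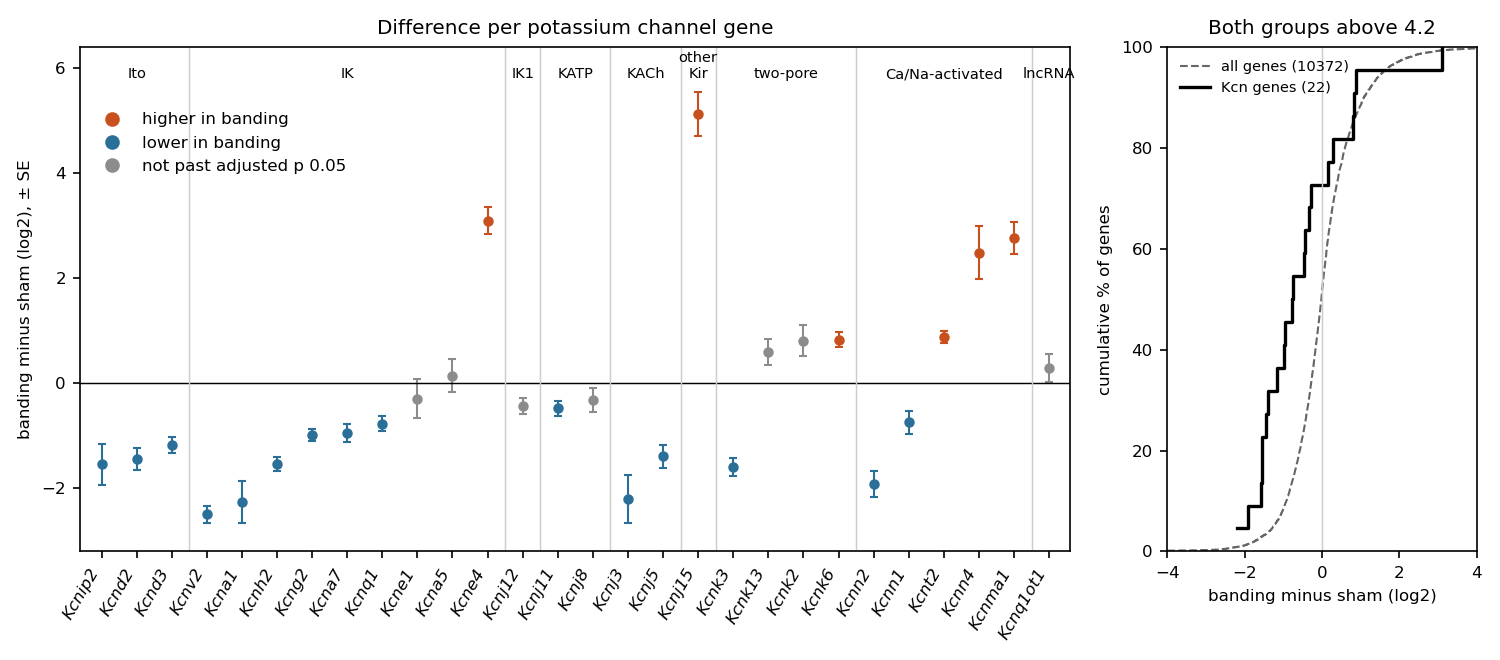
Left, difference in log2 expression, banding minus sham, with its standard error for the 28 genes above the dim level in at least 1 group, in blue where lower, orange where higher and grey where the adjusted p did not pass 0.05 (limma). Right, cumulative percentage of genes by difference for the 22 Kcn genes and the 10372 genes of all kinds with both group means at or above 4.2. Kcnj15 at 5.12 and Kcne4 at 3.10 lie highest, and the curve of Kcn genes runs to the left of that of all genes over most of its length.

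The antisense transcript Kcnq1ot1, which overlaps Kcnq1 and is imprinted, did not pass (0.30 ± 0.27, adjusted p = 0.459, limma). Without sham replicate 1 it passed (0.56, adjusted p = 0.0393, limma), and without sham replicate 2 or 4 its difference was 0.19 or 0.10. Its probe sets disagreed, with another rising by 0.69 (adjusted p = 0.0183 over all probe sets, limma) and 2 others at -0.00 and -0.36. The 2 other members called by the test were dim in both groups and have no fold. They were Kcnab2, a beta subunit, with means of 3.26 in sham and 3.84 in banding (adjusted p = 0.00963, limma), and Kcnc4, a Kv3 pore subunit, with 3.03 and 2.61 (adjusted p = 0.0414, limma). Kcnab2 was the dim member whose higher group mean lay closest to 4.2, and by the mean of its probe sets it did not pass (adjusted p = 0.366, limma). Kcnc4 was not called without any 1 array other than sham replicate 4 (adjusted p = 0.0618 to 0.104, limma).

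The remaining dim members are named so that all are accounted for, and a dim probe set does not show that a transcript is absent. Among the delayed rectifier group they were Kcna2, Kcna3, Kcna6, Kcnab1, Kcnab3, Kcnc1, Kcnc2, Kcne1l, Kcne2, Kcne3, Kcnf1, Kcng1, Kcng4, Kcnh1, Kcnh3, Kcnh5, Kcnh7, Kcnh8, Kcnq3, Kcnq5, Kcns1, Kcns2, Kcns3 and Kcnv1. Among the tandem-pore genes they were Kcnk1, Kcnk4, Kcnk5, Kcnk7, Kcnk10, Kcnk12, Kcnk15 and Kcnk16. Kcnn3, Kcnt1 and Kcnu1 of the calcium- and sodium-activated group were also dim, as were the noncoding transcripts Kcnmb4os1 and Kcnmb4os2. Of the 84 members 23 had 1 value on all 9 arrays.

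Several genes had more than 1 informative probe set. For 9 genes, 14 further probe sets had a group mean of at least 4.2, and 12 of the 14 had the sign of the probe set used. The 2 exceptions were both of Kcnq1ot1. The additional Kcnd2 probe sets gave -1.99 and -1.94, those of Kcnj3 gave -2.61 and -2.79, those of Kcnk3 gave -0.99 and -1.23, and the second of Kcnip2 gave -1.38. A second probe set of Kcnj11 gave -1.10 with a larger error of 0.42, and the mean of its probe sets gave -0.79.

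**Figure D3:**
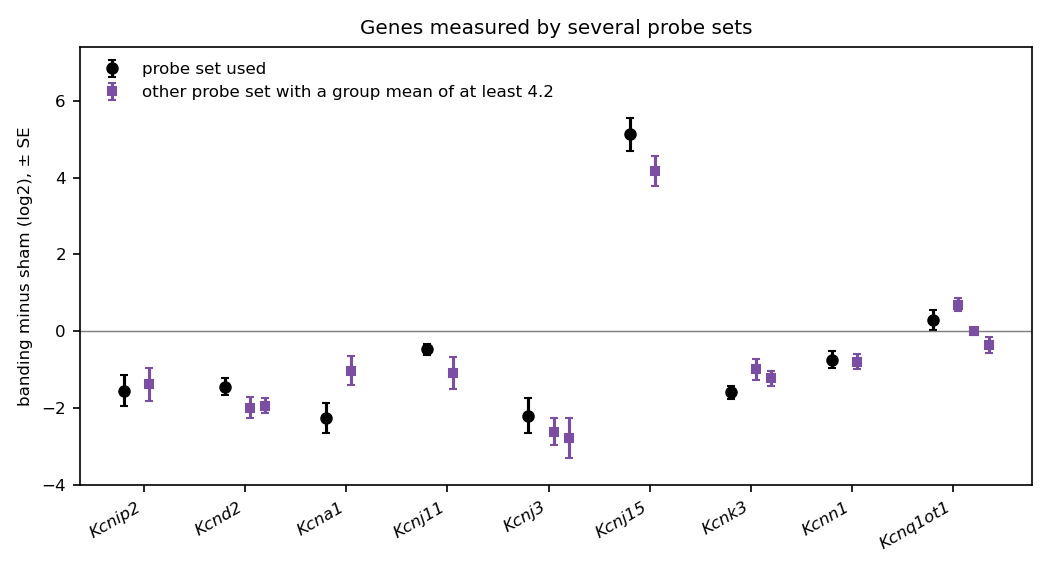
Difference in log2 expression, banding minus sham, with its standard error for the 9 genes with a further probe set whose group mean reached 4.2. Black circles are the probe sets used and purple squares the others. The 2 squares of Kcnj15 and Kcnj11 lie on the same side of 0 as their circles, and those of Kcnq1ot1 lie on both sides.

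The banding arrays were not equally far from sham. Over the 13 fallen members with both group means at or above 4.2, the median distance from the sham mean was -0.94 log2 units on banding replicate 1 and -0.89 on replicate 3, against -1.53, -1.75 and -1.59 on replicates 2, 4 and 5. Replicates 1 and 3 were the pair nearest to sham in 11 of the 13 genes (84.6%). Over all 3346 fallen genes with both group means at or above 4.2 they were that pair in 42.3%. The medians there were -0.53 and -0.64 on replicates 1 and 3 and -0.69, -0.76 and -0.78 on replicates 2, 4 and 5. These counts describe the arrays and carry no test. Sham replicate 4 held the lowest sham value in 9 of the 13 members and the highest in 1.

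**Figure D4:**
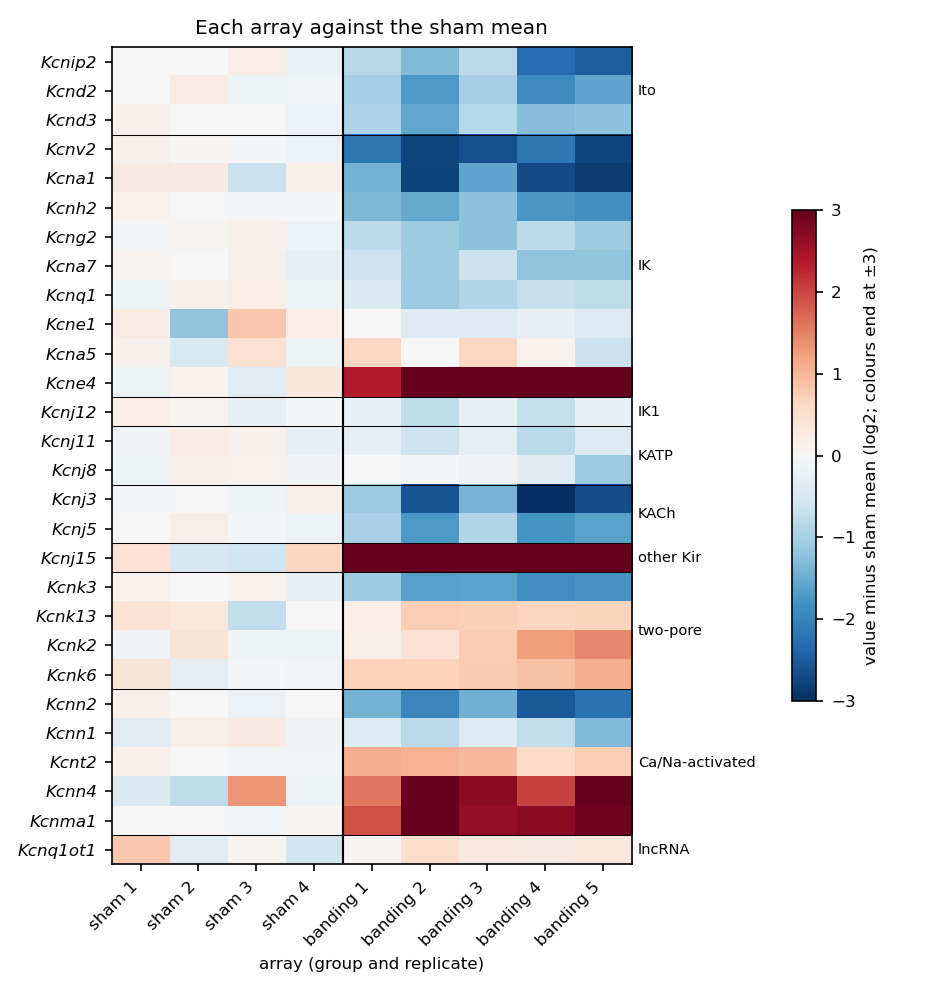
Each array's log2 value minus the sham mean for the 28 genes above the dim level in at least 1 group (rows, by current) on 4 sham and 5 banding arrays (columns). Blue is below and red above the sham mean, and colours end at 3 log2 units either way. The columns of banding replicates 1 and 3 are paler than the other banding columns for Kcnd2, Kcnip2, Kcnj3 and Kcnn2.

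Genes that work with the channels were taken from a list of 22, of which 18 were measured. Of the 18, 9 fell (20.0% of all genes did), 1 rose (18.4% of all genes did) and 8 missed the threshold, 4 of them dim in both groups. Of all genes with both group means at or above 4.2, 32.3% fell and 29.0% rose. Besides both Abcc genes, Amigo1, a membrane partner of Kv channels, was lower (-0.96 ± 0.21, adjusted p = 0.00767, limma). Ank2 and Cav3, membrane scaffolds of the cardiomyocyte, were lower by a log2 difference of -0.97 and -0.81, and Dlg1, a scaffold of Kv channels, by -0.31. The homeobox genes Irx3 (-1.06 ± 0.10, adjusted p = 0.000164, limma) and Irx5 (-1.06 ± 0.13, adjusted p = 0.000549, limma) were lower too. Irx5 is known as a repressor of Kcnd2 across the ventricular wall. Both Irx5 and Kcnd2 were lower in banding, at 5.41 to 5.88 in sham and 4.43 to 4.95 in banding for Irx5. Of the sodium-potassium pump, which restores the gradient the channels use, the regulator Fxyd1 was lower (-0.78 ± 0.08, adjusted p = 0.000293, limma) and the beta subunit Atp1b3 higher (0.30 ± 0.05, adjusted p = 0.0021, limma).

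Markers of cell types moved on the same arrays. Beside their counts, 29.0% of all genes with both group means at or above 4.2 were higher and 32.3% lower. For ventricular cardiomyocytes, 6 of 12 markers fell and 1 rose, with a median difference of -0.24 and list means of 15.22 to 15.29 in sham and 14.91 to 15.16 in banding. Of 10 fibroblast markers 9 were higher (list means 10.29 to 10.57 in sham, 12.60 to 12.89 in banding), and of 10 macrophage markers 9 (8.50 to 8.88, and 9.80 to 10.46). Of 8 smooth muscle and pericyte markers 6 were higher (8.70 to 9.25, and 9.94 to 10.49), and of 8 endothelial markers 5 (9.20 to 9.42, and 9.43 to 9.90). Of 7 neuronal markers 2 were higher, Uchl1 by 3.29 and Stmn2 by 1.39 log2 units, and Tubb3 did not pass (1.55). The other 4, Snap25, Syt1, Gap43 and Th, were dim in both groups. Of 4 Schwann cell markers 2 were higher, and all 5 T cell markers were dim. In tissue RNA, fewer cells of a type and less RNA per cell cannot be told apart. How much these shifts took part in the falls of Kcnd2, Kcnip2, Kcnh2 and Kcnk3 and in the rises of Kcnma1, Kcnn4, Kcne4 and Kcnj15 was not tested.

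Promoters are shown for the 2 members that rose most, for Kcnj3, the member with a window that fell most, and for Kcnd2, Kcnip2 and Kcnh2 of the repolarising currents. The last 3 were chosen after their values and motifs were seen, and all 3 hold a GC box, which 4 of the 8 fallen members with a window do. RefSeq windows (GRCm38.p6) were matched by gene ID for 64 of the 84 members and for 19 of the 28 above the dim level. Kcna1, Kcne1, Kcng2, Kcnj11, Kcnk3, Kcnk6, Kcnn2, Kcnq1 and Kcnv2 had no match. Each runs over the 250 bases before the first listed start, 5′ to 3′ on the strand of the gene. Capitals mark the GC box letters GGGCGG or their reverse complement, and the windows of Kcnj3, Kcnj15 and Kcne4 hold none.
Kcnj3 (GRCm38.p6, chr2:55435720-55435969, plus strand): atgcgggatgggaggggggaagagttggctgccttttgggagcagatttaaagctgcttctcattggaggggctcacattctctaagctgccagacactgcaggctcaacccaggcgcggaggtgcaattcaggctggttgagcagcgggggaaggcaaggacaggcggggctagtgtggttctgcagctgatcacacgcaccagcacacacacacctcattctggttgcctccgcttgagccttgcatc
Kcnd2 (GRCm38.p6, chr6:21215096-21215345, plus strand): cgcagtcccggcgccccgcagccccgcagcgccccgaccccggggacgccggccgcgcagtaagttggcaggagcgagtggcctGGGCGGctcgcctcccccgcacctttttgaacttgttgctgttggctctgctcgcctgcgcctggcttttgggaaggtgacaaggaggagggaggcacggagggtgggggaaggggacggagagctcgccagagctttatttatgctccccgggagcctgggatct
Kcnip2 (GRCm38.p6, chr19:45816064-45816313, minus strand): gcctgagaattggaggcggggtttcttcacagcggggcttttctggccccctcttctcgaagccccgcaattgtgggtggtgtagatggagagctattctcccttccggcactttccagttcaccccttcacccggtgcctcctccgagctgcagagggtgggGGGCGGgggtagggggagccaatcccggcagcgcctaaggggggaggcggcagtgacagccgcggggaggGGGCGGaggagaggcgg
Kcnh2 (GRCm38.p6, chr5:24329592-24329841, minus strand): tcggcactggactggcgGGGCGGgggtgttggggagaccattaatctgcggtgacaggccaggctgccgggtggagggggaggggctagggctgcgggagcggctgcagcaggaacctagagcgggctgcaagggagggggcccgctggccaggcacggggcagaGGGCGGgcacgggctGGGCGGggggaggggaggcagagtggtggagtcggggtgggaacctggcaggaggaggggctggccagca
Kcnj15 (GRCm38.p6, chr16:95257308-95257557, plus strand): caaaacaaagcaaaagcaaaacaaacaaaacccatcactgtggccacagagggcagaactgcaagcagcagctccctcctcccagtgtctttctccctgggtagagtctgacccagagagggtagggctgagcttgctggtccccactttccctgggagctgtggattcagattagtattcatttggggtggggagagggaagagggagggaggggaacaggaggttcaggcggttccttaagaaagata
Kcne4 (GRCm38.p6, chr1:78816661-78816910, plus strand): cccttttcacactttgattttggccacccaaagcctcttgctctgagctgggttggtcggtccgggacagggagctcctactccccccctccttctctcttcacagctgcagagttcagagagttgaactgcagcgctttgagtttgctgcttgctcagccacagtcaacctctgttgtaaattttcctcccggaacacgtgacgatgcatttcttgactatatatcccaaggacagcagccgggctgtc

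The windows differ in base composition. The GC content was 58.4% for Kcnj3, 68.8% for Kcnd2, 66.8% for Kcnip2 and 73.6% for Kcnh2, and 53.2% for both Kcnj15 and Kcne4, where the median over 27025 promoters was 52.0%. The median was 63.2% over the 8 fallen members with a window, 58.8% over the 5 that rose and 52.0% over the 6 not called. GGGCGG was found on either strand in 4 of the 8 fallen members (Kcnd2, Kcnh2, Kcnip2 and Kcnj5). It was in 2 of the 5 that rose (Kcnma1 and Kcnn4), in 0 of the 6 not called and in 32.9% of all promoters. The MCAT letters CATTCC were found in 4 of the 19 (Kcna5, Kcnk2, Kcnk13 and Kcnn4), against 12.6% of all. The TATA box letters TATAAA, the GATA letters AGATAA, the MEF2 site and the AP-1 letters TGANTCA were found in 0 of the 19, against 13.0%, 10.3%, 3.23% and 6.87% of all promoters. A match describes the letters only.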

How the data were processed

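Right ventricular RNA was measured on 5 banding and 4 sham one-colour Affymetrix arrays. The authors deposited values that read as log2 expression, with a shared floor and near-equal array medians, and they were used as they stand. RMA and GCRMA appear in the submitters' processing notes, which do not say which step used which or give a version. Of 45101 probe sets, 64 controls, 9160 without a gene and 932 with several genes were left out, and the remaining 34945 named 18193 genes by the platform annotation. Each gene was represented by its brightest probe set, judged by the mean of the 9 arrays.

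The comparison of the groups used limma 3.58.1 in R 4.3.3 (lmFit, eBayes, two-sided, no covariates, Benjamini-Hochberg over all genes). Differences are banding minus sham with the standard error, and folds against a dim group use 4.2. The fit was tested on simulated data. Figures were drawn with matplotlib 3.10.9.

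The members, lists and current groups were chosen with earlier results of these data known. Genes named are all members past the threshold, a set of cardiac channel genes whatever their p, and those not passing above the dim level. Replicate numbers are not said to pair the arrays. Deviations from the group means correlated at 0.036, 0.0046, -0.034 and -0.017 for the 4 shared numbers, which does not settle the question. Alternatives were other probe set rules, filters, normalisations, a replicate block and leaving out arrays. Genes not on the platform table were not analysed here.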

Additional observations from a re-analysis of the deposited data

Results flagged for a closer look

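The 28 genes above the dim level gave 56 groups of arrays, and those with a range of at least 0.1 were tested. Kcnma1 in sham was under that range. In 3 groups, 1 array lay far from the rest by Dixon's criterion, and chance gives about 1 in 20. Kcna1 was 5.158 on sham replicate 3, against 5.997 on the next array. Kcnk2 was 5.641 on sham replicate 2, against 5.157 on the next. Kcnk13 was 3.891 on banding replicate 1, under the dim level, against 4.354 on the next.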

How the results depend on the processing

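Of the 23 called members, 16 kept their call and direction under all alternatives run on 1 value per gene, and 0 changed direction. The 7 that lost the call under some were Kcna1, Kcnj3 and Kcnq1 (replicate block only), Kcnj11, Kcnn1, Kcnc4 and Kcnab2. Leaving out 1 array at a time gave 6270 to 6701 calls over all genes, 7 to 9 higher members and 13 to 15 lower members, against 6989, 7 and 16. With the replicate block, by a number not said to pair the arrays, 10 members were lower and 7 higher. Of 4 banding arrays, 0 correlated best with the sham array of its number. Quantile normalisation gave 15 higher members, 9 of them dim in both groups. Centring arrays on their medians, which lie among dim probe sets, shifted the median of all genes above the dim level from -0.015 to -0.14, gave 13528 calls (77.5% lower, against 52.0%) and 57 lower members, 41 of them dim in both groups. Of members above the dim level, 16 were lower and 7 higher under that centring, against 15 and 6. Kcna5, which did not pass, ran from -0.00831 to 0.342 without 1 array, and 2 further probe sets of Kcnq1ot1 gave -0.00188 and -0.357. Of the 8 uncalled genes tracked, 6 passed under some alternative. Signal near the floor limits 56 of the 84 members, Kcnj2 among them.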
